A study of Mus musculus with 24 samples.

Results

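The genes described here, Slc7a2, Nos2, Gch1, Ass1, Asl, Arg1, Arg2, Odc1, Srm and Sat1, form the main routes of arginine use in macrophages. They were taken by symbol, with earlier results of these data known, and make up 10 of the 24421 gene symbols in the count files. RNA of bone marrow-derived macrophages from C57BL/6J mice aged 12 weeks was sequenced in 24 libraries, 4 in each of 6 groups. Cells of wild-type (WT) origin and cells with an OGT knockout (KO) were studied without stimulation (M0), after 12 hours with 100 ng/ml of LPS (the study's M1 cells) and after 12 hours with 10 ng/ml of IL-4 (its M2 cells). No treatment or allele other than these is given for any group, and the labels do not say how or in which cells Ogt was deleted. Nothing in the labels tells whether the 4 libraries of a group are separate mice or separate cultures, so p-values measure the spread between libraries, which may be technical. Libraries carry a number in their label, 1 to 4 for WT and 5 to 8 for KO, and are named by it.

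Macrophages take up arginine through cationic amino acid transporters such as the product of Slc7a2 and spend it along competing routes. Inducible nitric oxide synthase, encoded by Nos2, turns arginine into nitric oxide and citrulline and needs tetrahydrobiopterin, whose synthesis starts with the GTP cyclohydrolase encoded by Gch1. Citrulline can be turned back into arginine by argininosuccinate synthase (Ass1) and argininosuccinate lyase (Asl). The arginases, cytosolic Arg1 and mitochondrial Arg2, instead split arginine into urea and ornithine. Ornithine decarboxylase (Odc1) turns ornithine into putrescine, spermidine synthase (Srm) turns putrescine into spermidine, and spermidine/spermine acetyltransferase (Sat1) marks polyamines for breakdown and export. Nos2 after LPS and Arg1 after IL-4 are textbook markers of the M1 and M2 states.

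The summed gene counts lay between 63429271 and 94942464 in 21 deep libraries and between 172771 and 209368 in 3 shallow ones, which are WT LPS 1, WT LPS 2 and KO LPS 7. Values are counts per 1000000 of the scaled library (CPM) unless stated. Where 0 was counted, up to 3 counts remain possible, which is 0.0303 to 0.055 CPM for a deep library and 15.5 to 17.9 CPM for a shallow one. Ogt itself was lower in KO than in WT, with a log2 fold change ± SE of -0.49 ± 0.0567 for M0 (edgeR, adjusted p = 1.01e-06), -0.63 ± 0.0719 in LPS (adjusted p = 4.22e-07) and -0.71 ± 0.0569 in IL-4 (adjusted p = 2.82e-09). All KO libraries lay under all WT libraries of the same state, the shallow KO LPS 7 being closest at 53.8 CPM beside a lowest WT LPS value of 54.96 CPM. All 8 macrophage markers were detected in every group. Their summed level was 11800 to 13400 CPM in WT M0 and 7300 to 9030 CPM in KO M0, and the sum of 7 stromal markers was 9670 to 11300 CPM in WT M0 and 13800 to 18600 CPM in KO M0. Col1a1, Col1a2 and Col3a1 made up most of that stromal sum, while Lum stayed at a group mean of 0.918 CPM or less. Lyz2 made up most of the macrophage sum in M0, with group means of 9310 CPM in WT M0 and 5090 CPM in KO M0. Adgre1, Csf1r, Itgam and Cd14 also had lower means in KO in M0 and in LPS. Cd68, Mertk and Fcgr1 had higher means in KO in all 3 states. KO numbers 5 and 6 stood apart from 7 and 8 over all genes, with a chi-square per degree of freedom in M0 of 9.09 and 8.51 within these pairs and of 46.99 to 63.8 across them. Markers of dendritic, erythroid, B, T and NK cells summed to at most 7.36 CPM in any library. Those of mast cells and basophils summed to 5.38 to 25.1 CPM, nearly all Mcpt8, with group means of 6.7 to 19.9 CPM. Those of neutrophils and their precursors summed to 9.86 to 62.9 CPM. The megakaryocyte sum of 341 to 645 CPM was nearly all Pf4, with group means of 373 to 578 CPM. Group means of the other megakaryocyte markers, Itga2b, Gp9 and Ppbp, were at most 1.58 CPM.

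**Figure D1:**
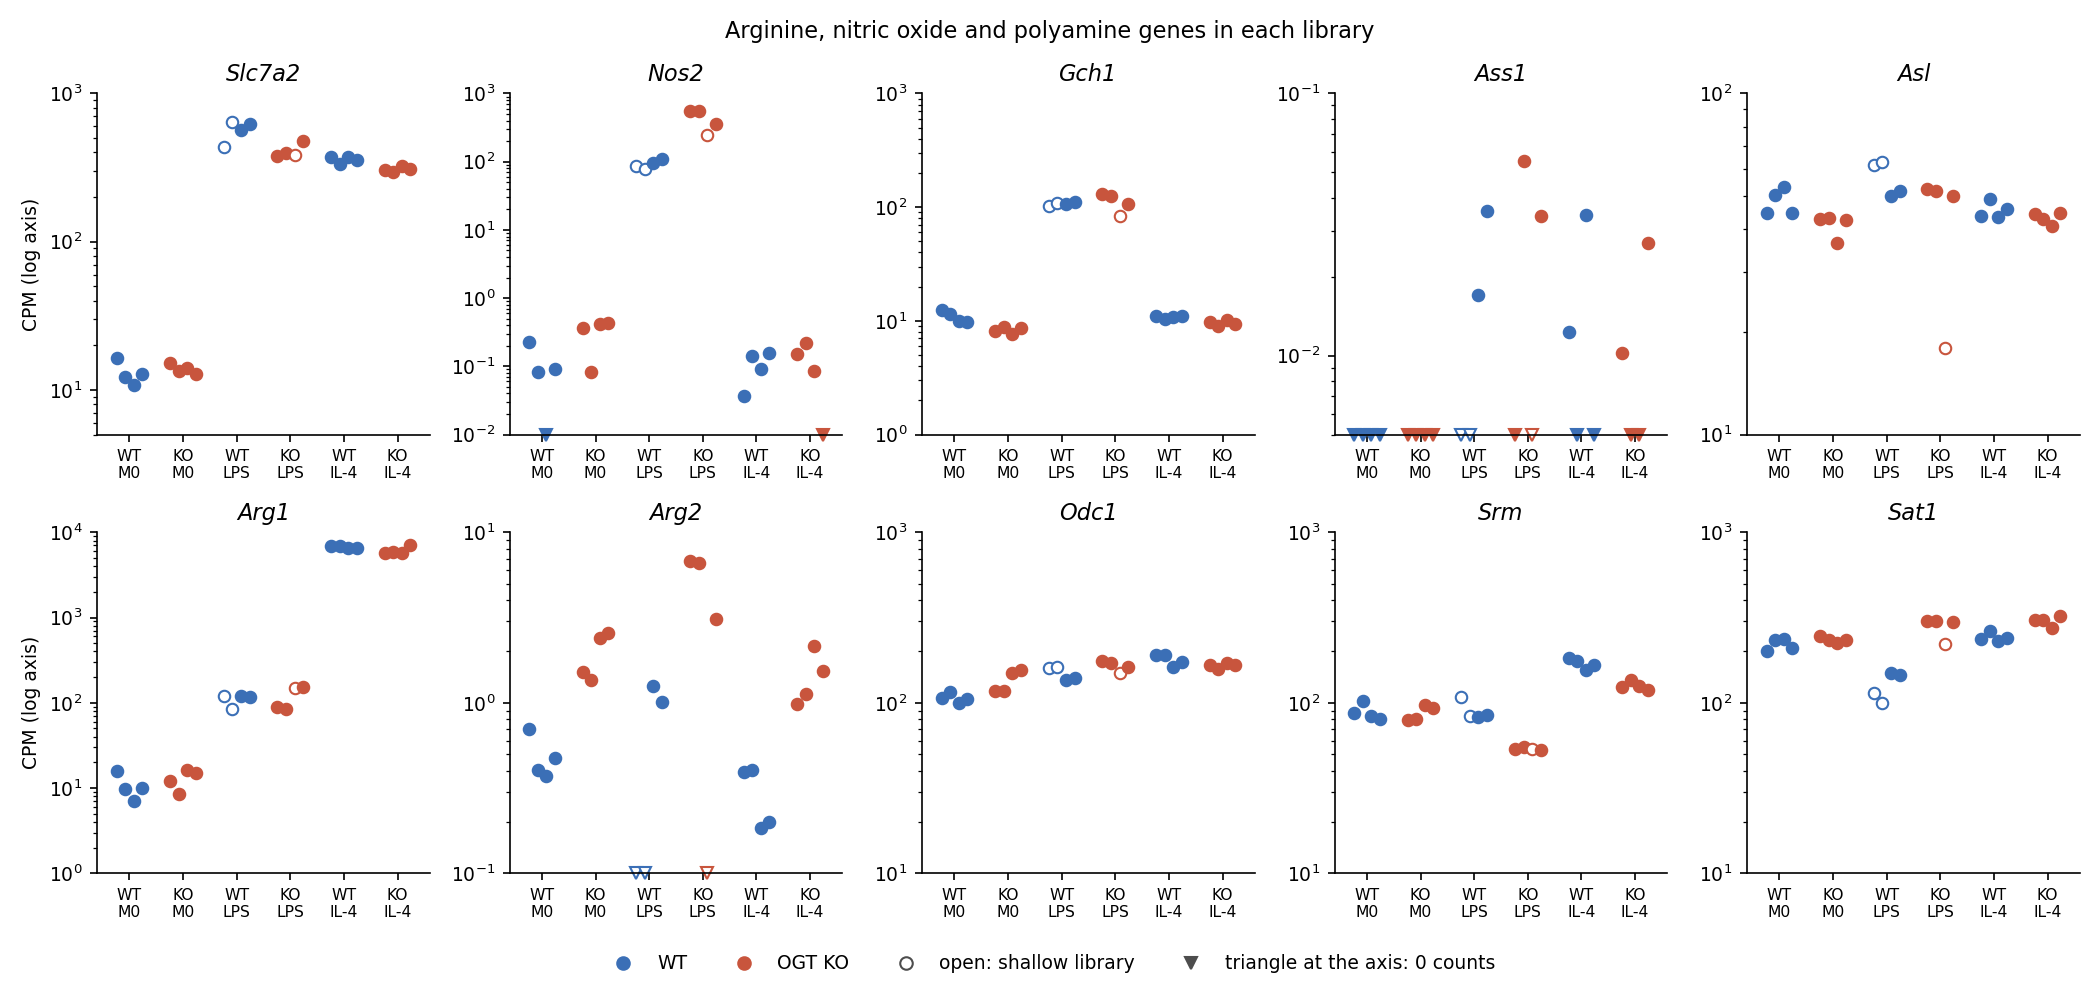
Each point is 1 library, placed by group on the x axis and by CPM on a log y axis, with WT in blue and OGT KO in red. Open symbols are the 3 shallow libraries and triangles on the axis mark libraries with 0 counts. Nos2 stands highest in KO LPS and Arg1 in both IL-4 groups, Arg2 lies higher in the deep KO than in the deep WT libraries of each state, and Ass1 stays at or near 0.

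LPS raised Nos2, Slc7a2, Gch1 and Arg1 by at least 3.11 on the log2 scale in both genotypes, and IL-4 raised Arg1 and Slc7a2 by at least 4.47. At an adjusted p under 0.05 (edgeR, over the 14693 genes that passed the filter on low counts), LPS raised 6 and lowered 1 of the 9 members tested in WT, where it raised 29.4% and lowered 28.3% of all genes tested. In KO it raised 8 and lowered 1, beside 31.2% and 36% of all genes. IL-4 raised 4 members in WT, beside 30.9% of all genes raised and 29.3% lowered, and 6 in KO, beside 26% raised and 25.2% lowered, and it lowered none of the members at that threshold. With LPS set against IL-4 directly, 4 members were higher and 4 lower in WT (31% and 31.9% of all genes), and 5 were higher and 2 lower in KO (31.6% and 36.2%). The median log2 fold change of the members was 1.21 for LPS in WT and 1.48 in KO, beside -0.0145 and -0.0668 over all genes. For IL-4 it was 0.144 in WT and 0.294 in KO, beside -0.0135 and -0.0152 over all genes. The WT and KO comparisons with M0 use each genotype's own M0 libraries, but the LPS and IL-4 comparisons of a genotype share them. Without the 3 shallow libraries, all calls of members in LPS against M0 and in KO against WT LPS were kept.

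**Figure D2:**
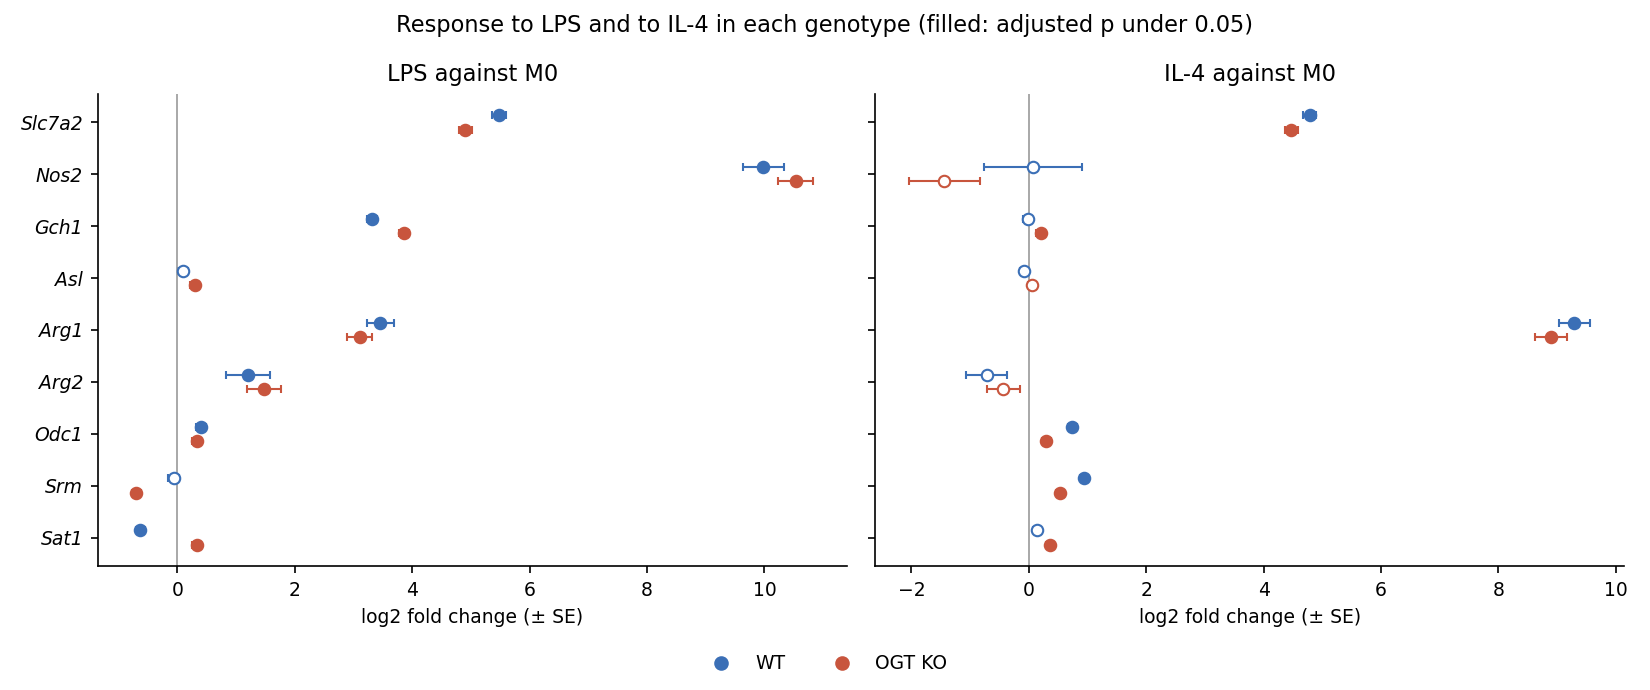
Log2 fold change against M0 (x axis, bars ± SE) of the 9 members tested, for LPS on the left and IL-4 on the right, in WT (blue) and KO (red). Filled points passed an adjusted p of 0.05. Nos2 moved most with LPS and Arg1 with IL-4, and Slc7a2 rose with both.

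Slc7a2 lies on chromosome 8 (40862341 to 40922070, plus strand, GRCm38) and encodes the inducible cationic amino acid transporter. In WT M0 it stood at 16.3, 12.2, 10.8 and 12.8 CPM, in WT LPS at 433, 638, 571 and 627 CPM, and in WT IL-4 at 374, 336, 372 and 355 CPM. The KO libraries 5 to 8 stood at 15.2, 13.5, 14.1 and 12.7 CPM in M0, at 377, 400, 383 and 480 CPM in LPS, and at 306, 296, 322 and 310 CPM in IL-4. Every stimulated library was above every M0 library of its genotype. Slc7a2 rose with LPS by 5.48 ± 0.12 in WT (adjusted p = 9.91e-23) and 4.90 ± 0.115 in KO (adjusted p = 1.98e-22) on the log2 scale. It rose with IL-4 by 4.79 ± 0.113 in WT (adjusted p = 1.91e-21) and 4.47 ± 0.111 in KO (adjusted p = 5e-21). LPS cells carried more of it than IL-4 cells, by 0.69 ± 0.104 in WT (adjusted p = 2.03e-06) and 0.43 ± 0.0998 in KO (adjusted p = 0.000464).

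Nos2 (chromosome 11, 78920787 to 78960226, plus strand) was close to undetected without LPS. Its raw counts in the M0 libraries were 19, 6, 0 and 8 in WT and 36, 8, 30 and 35 in KO, and in the IL-4 libraries 3, 10, 8 and 11 in WT and 15, 16, 8 and 0 in KO. With LPS the values were 87.7, 78.5, 94.9 and 111 CPM in WT and at 555, 556, 245 and 354 CPM in KO. All LPS libraries of both genotypes lay far above all others, and KO numbers 5 and 6 were higher than 7 and 8. The rise over M0 was 9.98 ± 0.345 in WT (log2, adjusted p = 8.11e-19) and 10.53 ± 0.3 in KO (adjusted p = 8.62e-21), measured against M0 libraries with at most 36 counts. IL-4 gave no call for Nos2 in WT (0.07 ± 0.83, adjusted p = 0.951). In KO its difference from M0 was -1.44 ± 0.606 (adjusted p = 0.0501). A block on the label number treats same-numbered libraries as pairs. KO M0 and KO IL-4 met a rule for such pairing, with correlations of 0.312 to 0.406. That rule could not tell pairing by number from the split of KO numbers 5 and 6 from 7 and 8. With the block on the number the difference was -1.41 and passed the threshold (adjusted p = 0.0287). It also passed without KO M0 6 (-1.79, adjusted p = 0.0106) or KO IL-4 6 (-1.85, adjusted p = 0.0309), with RLE scaling (adjusted p = 0.0376), with no filter (-1.43, adjusted p = 0.0471) and without numbers 5 and 6 (-3.11, adjusted p = 0.000835), and was -0.30 (adjusted p = 0.708) without numbers 7 and 8. DESeq2 (adjusted p = 0.0749) and number pairs summed (adjusted p = 0.101) gave no call, and only 7 of 18 alternatives passed in all.

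Gch1 (chromosome 14, 47153895 to 47189413, minus strand) rose with LPS and hardly moved with IL-4. It stood at 12.5, 11.5, 9.91 and 9.77 CPM in WT M0 and at 8.21, 8.75, 7.66 and 8.56 CPM in KO M0. LPS libraries had values of 103, 110, 107 and 110 CPM in WT and at 131, 126, 83.7 and 108 CPM in KO, where the 83.7 CPM rests on 14 counts in shallow library 7. After IL-4 it ranged from 10.39 to 11.01 CPM in WT and from 9.05 to 10.2 CPM in KO. LPS raised it by 3.32 ± 0.0854 in WT (adjusted p = 2.47e-21) and by 3.86 ± 0.083 in KO (adjusted p = 3.4e-23), so the LPS and M0 values of a genotype did not come near each other. IL-4 gave -0.02 ± 0.0762 in WT (adjusted p = 0.872) and 0.21 ± 0.0771 in KO (adjusted p = 0.0277), and the latter call was lost in 9 of 18 alternatives, among them those without KO M0 5 or 7 (0.20 and 0.16) and without KO IL-4 5 or 7 (0.19 and 0.17).

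Of the genes that recycle citrulline, Ass1 was counted too rarely to test, and Asl differed from M0 by at most 0.30 on the log2 scale under either stimulus. Ass1 (chromosome 2, 31470270 to 31520670, plus strand) held 15 counts in all 24 libraries together and at most 3 in any, so it did not pass the filter and was not tested. These counts are at or under the level that a count of 0 allows, and no fold is given. Ass1 has a near-identical copy, the processed pseudogene Gm5424 on chromosome 10 (62071022 to 62072571, plus strand). The 1239 bases of the Ass1 coding sequence differ from it at 6 positions (99.5% identity), with an identical run of 398 bases, and 38.6% of the distinct 50-base words of Ass1 transcripts also occur in Gm5424. Most of these words are therefore Ass1's own. Gm5424 was listed at 0 in all libraries, and the labels do not say how the counting treated reads that fit both places. The part of this copy in the low count was not tested, and the counts do not show that Ass1 RNA was absent. Both sequences are shown over coding bases 310 to 429, read 5′ to 3′ from GENCODE M21 transcripts (GRCm38). No stretch of 120 aligned bases held more differences than this one. Capitals mark the 2 positions that differ.
Ass1: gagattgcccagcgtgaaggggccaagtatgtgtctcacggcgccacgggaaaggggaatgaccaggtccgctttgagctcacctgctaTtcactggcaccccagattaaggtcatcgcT
Gm5424: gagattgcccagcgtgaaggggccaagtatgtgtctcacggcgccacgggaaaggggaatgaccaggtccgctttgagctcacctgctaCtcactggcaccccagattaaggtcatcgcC

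Asl (chromosome 5, 130011258 to 130024381, minus strand) was expressed in all groups and varied little. It stood at 44.7, 50.4, 53.02 and 44.8 CPM in WT M0 and at 42.98, 43.2, 36.4 and 42.6 CPM in KO M0. LPS libraries had values of 61.9, 62.8, 49.99 and 51.9 CPM in WT and at 52.3, 51.6, 17.9 and 50.1 CPM in KO, where the 17.9 CPM rests on 3 counts in shallow library 7. After IL-4 it ranged from 43.5 to 48.9 CPM in WT and from 40.8 to 44.5 CPM in KO. LPS gave 0.10 ± 0.0844 in WT (adjusted p = 0.343) and raised it by 0.30 ± 0.075 in KO (adjusted p = 0.00104). The KO call was lost with DESeq2 (0.20, adjusted p = 0.163) and with a shallow library as the reference of the scaling (0.13, adjusted p = 0.102). IL-4 gave -0.08 ± 0.0699 in WT (adjusted p = 0.317) and 0.06 ± 0.07 in KO (adjusted p = 0.492).

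Arg1 (chromosome 10, 24915207 to 24927470, minus strand) was the gene that IL-4 moved most among the members, and it rose with LPS as well. It stood at 15.9, 9.66, 7.05 and 9.92 CPM in WT M0 and at 12.0, 8.54, 16.1 and 14.8 CPM in KO M0. After IL-4 it stood at 6898, 6815, 6476 and 6537 CPM in WT and at 5763, 5877, 5770 and 7045 CPM in KO. Every IL-4 library was far above all M0 libraries, and the genotypes overlapped, with KO number 8 the highest of all.

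The rise of Arg1 with IL-4 was 9.30 ± 0.271 in WT (log2, adjusted p = 9.35e-20) and 8.90 ± 0.266 in KO (adjusted p = 2.2e-19). Its LPS values were 119, 83.7, 121 and 118 CPM in WT and at 88.5, 85.3, 150 and 153 CPM in KO. KO numbers 5 and 6 lay under most WT libraries and numbers 7 and 8 over all of them, the reverse of the order of these numbers for Nos2. The rise with LPS was 3.46 ± 0.226 in WT (adjusted p = 5.83e-13) and 3.11 ± 0.214 in KO (adjusted p = 1.09e-12). LPS cells had less Arg1 than IL-4 cells by -5.84 ± 0.256 in WT (adjusted p = 9.32e-17) and -5.78 ± 0.245 in KO (adjusted p = 3.03e-17).

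Arg2 (chromosome 12, 79130788 to 79156301, plus strand) was a low gene in every group. It stood at 0.697, 0.401, 0.374 and 0.473 CPM in WT M0 and at 1.52, 1.36, 2.38 and 2.57 CPM in KO M0. After IL-4 it stood at 0.394, 0.406, 0.183 and 0.2 CPM in WT and at 0.981, 1.12, 2.14 and 1.54 CPM in KO. After LPS the deep libraries held 1.25 and 1.02 CPM in WT and 6.77, 6.6 and 3.11 CPM in KO, while the 3 shallow libraries held 0 counts, which at their depth cannot show such levels. In each state the deep KO libraries all lay above the deep WT libraries.

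LPS raised Arg2 by 1.21 ± 0.378 in WT (adjusted p = 0.00804) and by 1.48 ± 0.289 in KO (adjusted p = 7.02e-05). The WT call was lost without WT LPS 3 (1.04, adjusted p = 0.0843) and with DESeq2 (1.11, adjusted p = 0.11), and the KO rise was 0.36 (adjusted p = 0.371) without numbers 5 and 6. IL-4 gave -0.72 ± 0.356 in WT (adjusted p = 0.0843, but -0.92 and 0.0499 without WT IL-4 2) and -0.43 ± 0.279 in KO (adjusted p = 0.205). Of the 50-base words of Arg2 transcripts, 17.1% also occur in transcripts of Vti1b, which overlaps its end on the opposite strand and stood at 83.7 to 105 CPM in the group means. Vti1b did not pass the threshold between genotypes in any state (-0.04 ± 0.0575, -0.17 ± 0.0714 and -0.11 ± 0.0575 in M0, LPS and IL-4).

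The 3 polyamine genes moved by less than 2-fold in any response to a stimulus. Odc1 (chromosome 12, 17544808 to 17551502, plus strand), the entry to polyamine synthesis, stood at 106, 116, 99.6 and 106 CPM in WT M0 and at 117, 118, 149 and 155 CPM in KO M0. Its LPS values were 160, 162, 137 and 139 CPM in WT and at 175, 171, 150 and 163 CPM in KO, and after IL-4 at 190, 190, 162 and 173 CPM in WT and at 166, 158, 171 and 166 CPM in KO. All stimulated WT libraries were above all WT M0 libraries, while KO M0 numbers 7 and 8 already lay close to the stimulated KO range.

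Odc1 rose with IL-4 by 0.74 ± 0.0773 in WT (adjusted p = 7.7e-09) and by 0.29 ± 0.0769 in KO (adjusted p = 0.00242), and with LPS by 0.40 ± 0.0901 in WT (adjusted p = 0.00045) and 0.33 ± 0.0817 in KO (adjusted p = 0.00102). In KO both calls were lost without numbers 5 and 6 (0.15, adjusted p = 0.131, for IL-4 and 0.14, adjusted p = 0.21, for LPS), and the LPS call with a shallow library as the scaling reference (0.17, adjusted p = 0.07).

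Srm (chromosome 4, 148591513 to 148594619, plus strand) rose with IL-4 in both genotypes and fell with LPS in KO. It stood at 87.4, 102, 83.9 and 80.8 CPM in WT M0 and at 79.2, 80.3, 96.9 and 93.4 CPM in KO M0. Its LPS values were 108, 83.7, 82.98 and 84.4 CPM in WT and at 53.8, 54.8, 53.8 and 53.2 CPM in KO, and after IL-4 at 183, 176, 155 and 166 CPM in WT and at 123, 136, 126 and 120 CPM in KO. The KO LPS libraries were the lowest of all 24 and the WT IL-4 libraries the highest. The value of shallow KO LPS 7 rests on 9 counts, and those of WT LPS 1 and 2 on 21 and 16, so their places are uncertain. IL-4 raised Srm by 0.94 ± 0.0726 in WT (adjusted p = 3.46e-11) and by 0.53 ± 0.0722 in KO (adjusted p = 1.1e-06). LPS gave -0.06 ± 0.0867 in WT (adjusted p = 0.546) and lowered it by -0.70 ± 0.0793 in KO (adjusted p = 1.81e-08).

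Sat1 (chromosome X, 155213126 to 155216449, minus strand) went opposite ways with LPS in the 2 genotypes. It stood at 201, 232, 235 and 209 CPM in WT M0 and at 246, 234, 226 and 233 CPM in KO M0. Its LPS values were 114, 99.4, 148 and 146 CPM in WT and at 303, 300, 221 and 298 CPM in KO, and after IL-4 at 237, 263, 231 and 239 CPM in WT and at 306, 304, 274 and 325 CPM in KO. All WT LPS libraries were under all WT M0 libraries, and the deep KO LPS libraries were above all KO M0 libraries. LPS lowered Sat1 by -0.63 ± 0.0842 in WT (adjusted p = 4.33e-07) and raised it by 0.33 ± 0.075 in KO (adjusted p = 0.000423). IL-4 gave 0.14 ± 0.0714 in WT (adjusted p = 0.085) and raised it by 0.37 ± 0.0714 in KO (adjusted p = 0.000131).

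Upstream sequence is shown for Gch1 and Sat1. Each sequence runs 5′ to 3′ over the 250 bases before the transcript start used in the RefSeq promoter table (GRCm38.p6) and is shown because these genes responded to LPS in different ways, Gch1 by a large rise and Sat1 by a fall in WT and a rise in KO. Gch1 lies at chr14:47189414-47189663 and Sat1 at chrX:155216450-155216699, both on the minus strand. Capitals mark the only match to a searched motif, the letters of a TATA box in Gch1 on the strand opposite to the one printed.
Gch1: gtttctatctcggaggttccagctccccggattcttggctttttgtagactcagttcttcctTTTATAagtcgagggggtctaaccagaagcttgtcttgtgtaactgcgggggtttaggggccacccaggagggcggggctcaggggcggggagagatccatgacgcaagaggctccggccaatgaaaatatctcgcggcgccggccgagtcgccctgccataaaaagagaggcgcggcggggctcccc
Sat1: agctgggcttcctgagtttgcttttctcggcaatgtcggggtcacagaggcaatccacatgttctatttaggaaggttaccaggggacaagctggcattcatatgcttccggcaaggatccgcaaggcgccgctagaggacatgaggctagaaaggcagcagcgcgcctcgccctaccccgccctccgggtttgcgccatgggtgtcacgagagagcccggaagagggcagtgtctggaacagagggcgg

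The Gch1 sequence holds 59.2% G and C and 17 CpG, and Sat1 59.6% and 15, beside medians of 52% and 6 over 27025 promoters. Both strands were searched for 9 motifs, with N for any base. The TATA box letters TATAAA were found in Gch1, on the strand opposite to the one printed, at -188 to -183 from the start. They occur in 13% of promoters of this length. The kB-like letters GGGA, any base, T, any 2 bases and CC (3.4% of promoters), the STAT letters TTCNNNGAA (7.18%) and TTC, any 4 bases and GAA (5.86%), the IRF-like GAAA, any 2 bases and GAAA (3.04%) and the AP-1 letters TGANTCA (6.87%) were not found in these windows. Nor were the C/EBP-like TTGCNNAA (9.55%), the C/EBP-ATF letters TGATGNAA (3.53%) and the E-box CACGTG (6.05%).

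Between genotypes, Arg2 was higher in KO in all 3 states, Nos2 was higher in KO LPS, Sat1 was higher and Srm lower in KO after LPS and after IL-4, and Arg1 did not pass the threshold in M0, LPS or IL-4. In M0, 2 of the 9 members tested were higher and 2 lower in KO, beside 11.8% and 10.5% of all genes. In LPS, 4 were higher and 2 lower (16.2% and 14.6% of all genes), and in IL-4, 2 were higher and 1 lower (17.9% and 18.2%). KO and WT libraries were fully separated for 4 members in M0, 3 in LPS and 5 in IL-4, beside 27.1%, 12.9% and 37.1% of all genes. Of the 9 members, 8 were called in at least 1 state. The shares of all genes given here are for single states and cannot be set beside that count. The members' median log2 fold change was 0.0967 in M0, 0.149 in LPS and -0.115 in IL-4, beside 0.0153, 0.0118 and 0.00654 over all genes.

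The sums of stromal and macrophage markers also differed by genotype, the latter mainly through Lyz2. The stromal sum in the deep LPS libraries was 13300 to 13700 CPM in WT and 17500 to 17800 CPM in KO, and after IL-4 it was 7080 to 7570 CPM in WT and 10400 to 13800 CPM in KO. The sum of 7 endothelial markers, Nos3 among them, was 13.2 to 18.1 CPM in WT M0 and 23.6 to 69.8 CPM in KO M0, 39.6 to 41.6 and 76 to 96.3 CPM in the deep LPS libraries, and 7.11 to 10.3 and 9.77 to 28 CPM after IL-4. The macrophage sum was 15900 to 16000 CPM in the deep WT LPS libraries and 9810 to 10700 CPM in the deep KO ones, and 5550 to 6180 CPM in WT IL-4 and 4950 to 5210 CPM in KO IL-4. Lyz2 alone had group means of 8310 and 3700 CPM in WT and KO LPS. Adgre1, Csf1r, Itgam and Cd14 also had lower means in KO LPS, and Cd68, Mertk and Fcgr1 higher ones. After IL-4 the Lyz2 means were 3230 and 2350 CPM in WT and KO, and 6 of the other 7 markers had higher means in KO. The part of these marker differences in the differences of the members was not tested. In such bulk RNA, fewer cells of a type and less RNA per cell cannot be told apart.

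**Figure D3:**
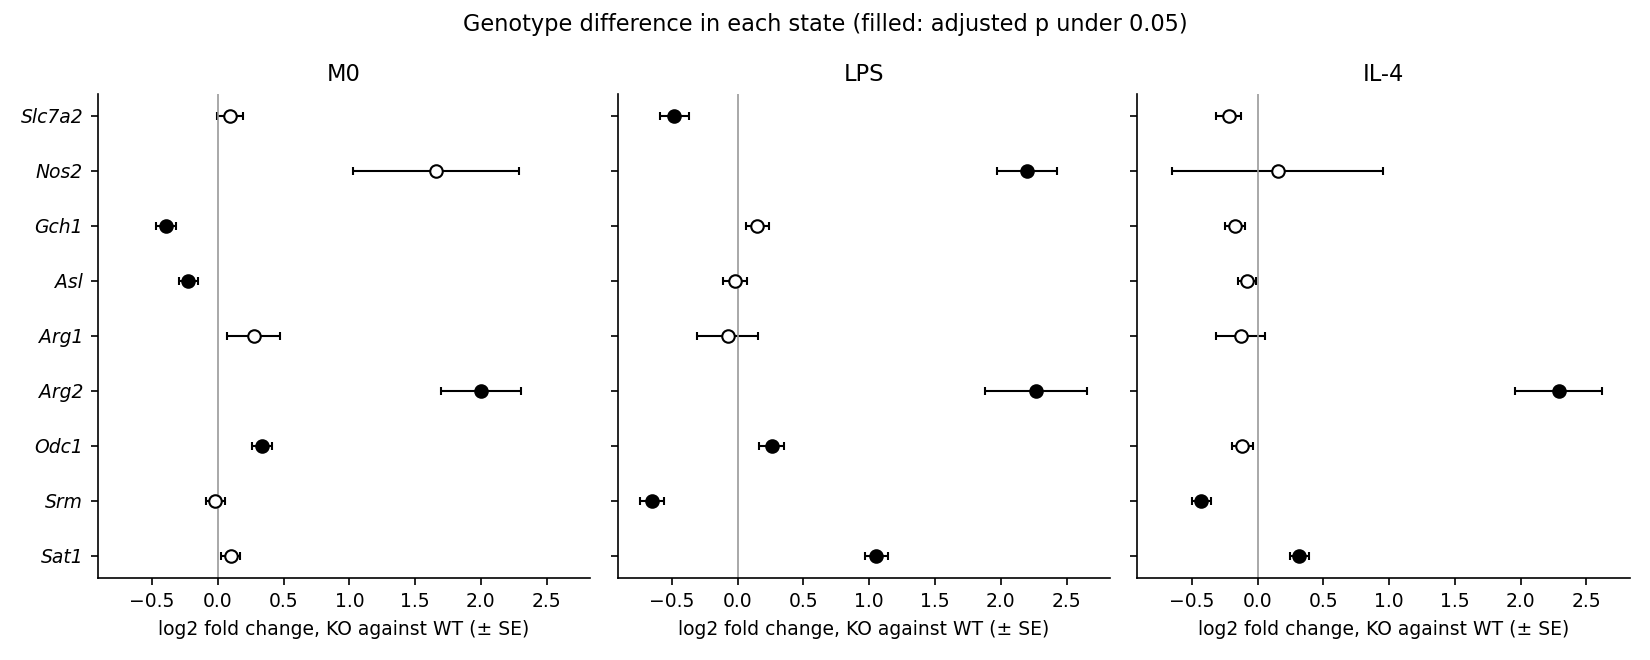
Log2 fold change of KO against WT (x axis, bars ± SE) for the 9 members tested, in M0, LPS and IL-4 from left to right. Filled points passed an adjusted p of 0.05, and positive values are higher in KO. Arg2 is filled in every panel, and Nos2, Sat1 and Srm stand away from 0 in LPS.

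Among the nitric oxide genes, Nos2 was higher in KO than in WT LPS by 2.20 ± 0.228 (4.6-fold, adjusted p = 9.75e-08), with all 4 KO libraries above all 4 WT libraries. The difference was 2.25 without the 3 shallow libraries, and it stayed past the threshold in each of 17 alternatives, between 1.74 (without KO numbers 5 and 6) and 2.45. In M0 Nos2 was at 0.101 ± 0.0946 CPM in WT and 0.325 ± 0.164 CPM in KO (SD, n = 4), and the difference of 1.66 ± 0.629 missed the threshold (adjusted p = 0.0598). It passed in 3 of 17 alternatives, among them those without WT M0 1 (2.44, adjusted p = 0.0257) and without KO M0 6 (1.99, adjusted p = 0.0166). In IL-4 the difference was 0.15 ± 0.799 (adjusted p = 0.904). Gch1 was lower in KO M0 by -0.39 ± 0.0768 (adjusted p = 0.00058), with no overlap, a call lost with number pairs summed (-0.41, adjusted p = 0.0714), and was not called in LPS (0.15 ± 0.0877, adjusted p = 0.207, but 0.23 and 0.0462 without KO LPS 8) or IL-4 (-0.17 ± 0.0766, adjusted p = 0.0825). Asl was lower in KO M0 by -0.22 ± 0.0699 (adjusted p = 0.0227), a call that was lost with DESeq2 (-0.21, adjusted p = 0.245), without WT M0 3 (-0.19, adjusted p = 0.078) and without KO M0 7 (-0.19, adjusted p = 0.0788).

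Slc7a2, the transporter, was lower in KO LPS by -0.48 ± 0.108 (1.4-fold, adjusted p = 0.00137), although WT LPS 1, a shallow library, lay within the KO range. The difference was -0.51 without the shallow libraries, and it was not called without KO numbers 5 and 6 (-0.32, adjusted p = 0.068). In IL-4 all 4 KO libraries were under all 4 WT libraries, but the difference of -0.22 ± 0.0953 missed the threshold (adjusted p = 0.073), which it passed when only these 2 groups were fitted (-0.21, adjusted p = 0.00566). In M0 it was 0.09 ± 0.101 (adjusted p = 0.55).

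The 2 arginases gave unlike values. Arg2 had more RNA in KO, by 2.001 ± 0.306 in M0 (4-fold, adjusted p = 3.85e-05), 2.27 ± 0.388 in LPS (4.83-fold, adjusted p = 7.89e-05) and 2.29 ± 0.331 in IL-4 (4.89-fold, adjusted p = 1e-05). It was called in all 17 alternatives in each state, and in LPS the value rests on 5 deep libraries. Arg1 gave 0.27 ± 0.199 in M0 (adjusted p = 0.348), -0.08 ± 0.231 in LPS (adjusted p = 0.838) and -0.13 ± 0.188 in IL-4 (adjusted p = 0.627). In LPS the sign of the Arg1 difference followed the KO numbers, being 0.39 (adjusted p = 0.175) without numbers 5 and 6 and -0.43 (adjusted p = 0.0724) without numbers 7 and 8. In M0 Arg1 was called without numbers 5 and 6 (0.51, adjusted p = 0.0226).

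Among the polyamine members, Sat1, the catabolic enzyme, was higher in KO LPS by 1.05 ± 0.0878 (2.07-fold, adjusted p = 3.46e-09) and in KO IL-4 by 0.32 ± 0.0714 (1.25-fold, adjusted p = 0.00115), with no overlap in either state. In M0 the difference was 0.10 ± 0.0714 (adjusted p = 0.354). Srm, which makes spermidine, was lower in KO LPS by -0.65 ± 0.0912 (1.57-fold, adjusted p = 6.86e-06) and in KO IL-4 by -0.43 ± 0.072 (1.35-fold, adjusted p = 5.97e-05), again with no overlap, and was at -0.02 ± 0.0722 in M0 (adjusted p = 0.884). The Sat1 and Srm calls in LPS and IL-4 held in all 17 alternatives, and without the shallow libraries the LPS values were 1.03 for Sat1 and -0.63 for Srm. Odc1 was higher in KO M0 by 0.33 ± 0.077 (adjusted p = 0.00274), where KO numbers 5 and 6 were just above the highest WT library, and the difference was 0.13 (adjusted p = 0.175) without numbers 7 and 8. In KO LPS it was higher by 0.26 ± 0.0953 (adjusted p = 0.0402). That call was lost in 10 of 17 alternatives, among them those without WT LPS 3, WT LPS 4, KO LPS 5 or KO LPS 6 (0.24, 0.26, 0.25 and 0.27, with adjusted p of 0.136, 0.119, 0.0749 and 0.0611). In IL-4 Odc1 gave -0.12 ± 0.0768 (adjusted p = 0.252).

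The response to a stimulus was compared between genotypes as an interaction, the KO response minus the WT response. For LPS, 2 of the 9 members had a larger and 2 a smaller value in KO, beside 6.62% and 4.79% of all genes. The difference was 0.96 ± 0.113 for Sat1 (adjusted p = 6.53e-06), 0.54 ± 0.117 for Gch1 (adjusted p = 0.00299), -0.63 ± 0.116 for Srm (adjusted p = 0.000743) and -0.57 ± 0.148 for Slc7a2 (adjusted p = 0.0121). Sat1 kept its call in each of 26 alternatives, and Gch1 and Srm in 25 of 26. Slc7a2 lost it in 8 of 26, among them those without WT M0 3, WT LPS 3, WT LPS 4, KO LPS 5 or KO LPS 6 (-0.45, -0.54, -0.47, -0.48 and -0.51, with adjusted p from 0.0501 to 0.0857). Nos2 gave 0.54 ± 0.762 (adjusted p = 0.707), so the larger genotype difference of Nos2 in LPS than in M0 was not shown. For Arg2 the LPS interaction was 0.27 ± 0.486 (adjusted p = 0.782) and for Arg1 -0.35 ± 0.304 (adjusted p = 0.509).

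For IL-4, 2 of the 9 members had a smaller response in KO and none a larger one, beside 0.667% and 0.47% of all genes. They were Odc1, at -0.45 ± 0.109 (adjusted p = 0.0432), and Srm, at -0.41 ± 0.102 (adjusted p = 0.0475). Both lie close to the threshold. Odc1 was called in 10 and Srm in 9 of 26 alternatives, and neither was called with DESeq2 (adjusted p = 0.0505 for Odc1 and 0.0796 for Srm) and without KO numbers 7 and 8 (-0.27 and -0.23). Both calls were also lost without any 1 of WT M0 1, 3 and 4, KO M0 7 and 8, WT IL-4 1, 2 and 4, or KO IL-4 5, 7 and 8, and that of Odc1 without KO IL-4 6. Over these the values ran from -0.36 to -0.45 for Odc1 and from -0.35 to -0.41 for Srm. Arg1 gave -0.40 ± 0.273 (adjusted p = 0.555) and Slc7a2 -0.31 ± 0.139 (adjusted p = 0.299).

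Ratios of 2 genes within a library do not depend on the scaling between libraries and are given as a description. After LPS the WT libraries held 0.739, 0.938, 0.785 and 0.942 Nos2 counts per Arg1 count, and the KO libraries 6.27, 6.52, 1.64 and 2.31. All KO values were above 1 and all WT values under it, and KO numbers 5 and 6 stood apart from 7 and 8. In the shallow libraries the ratios rest on few counts, 17 over 23 and 15 over 16 in WT 1 and 2 and 41 over 25 in KO 7. Their side of 1 is therefore uncertain. The deep libraries gave 0.785 and 0.942 in WT and 6.27, 6.52 and 2.31 in KO. The number of Srm counts per Odc1 count was 0.765 to 0.886 in WT M0 and 0.602 to 0.683 in KO M0. It was 0.516 to 0.677 in WT LPS and 0.307 to 0.36 in KO LPS, and 0.925 to 0.959 in WT IL-4 and 0.722 to 0.857 in KO IL-4. In each of the 3 states the 2 genotypes did not overlap. The shallow LPS libraries rest on 21 over 31 and 16 over 31 counts in WT and 9 over 25 in KO. The deep LPS libraries did not overlap either, at 0.606 and 0.607 in WT and 0.307 to 0.326 in KO. Sat1 counts in the shallow libraries were 22 and 19 in WT and 37 in KO. Sat1 counts per Odc1 count were 0.613 to 1.08 in WT LPS and 1.48 to 1.83 in KO LPS, 1.25 to 1.42 in WT IL-4 and 1.61 to 1.96 in KO IL-4, and overlapped in M0, at 1.89 to 2.36 and 1.5 to 2.11.

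**Figure D4:**
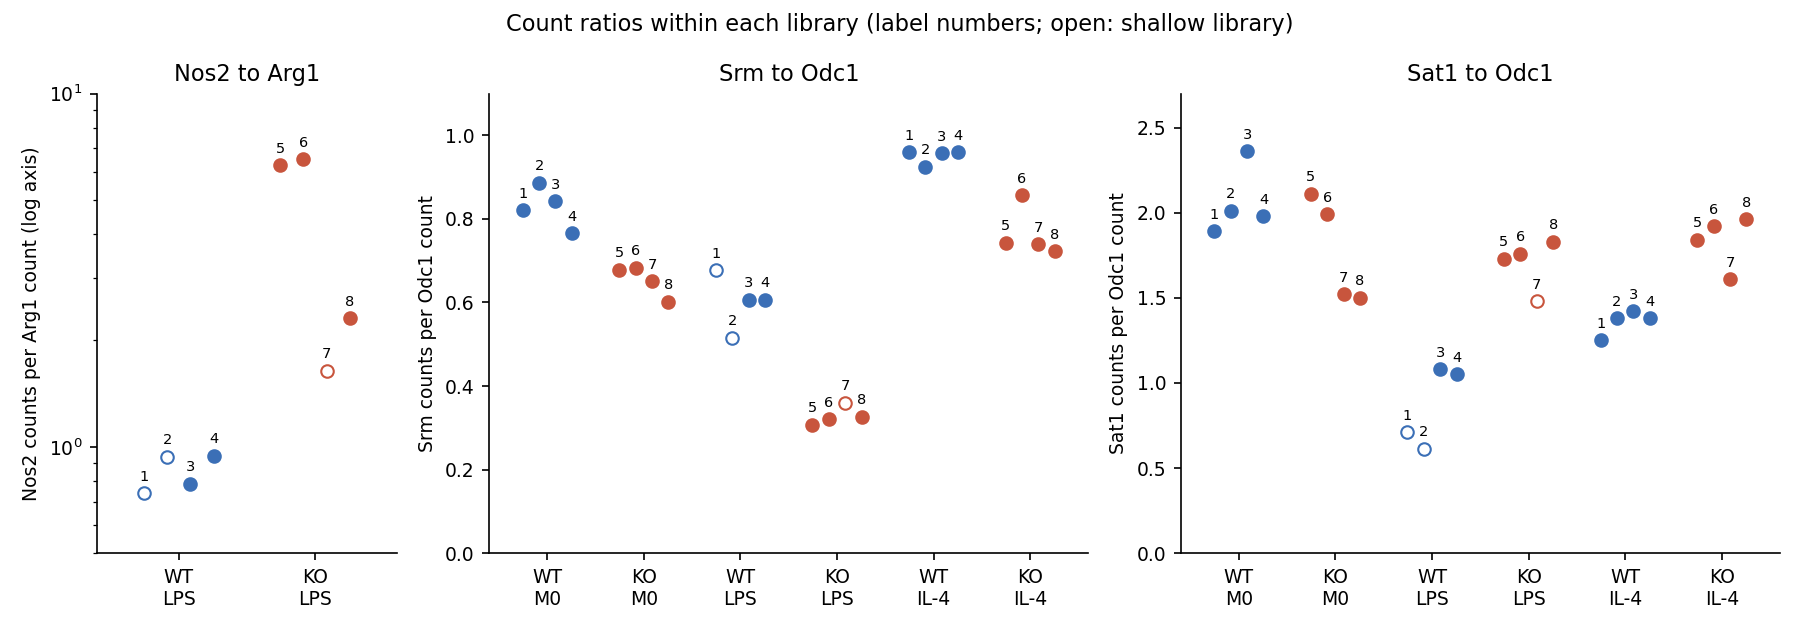
Each point is 1 library with its label number, and the y axes give Nos2 counts per Arg1 count after LPS (log axis, left), Srm counts per Odc1 count (middle) and Sat1 counts per Odc1 count (right), with open points for shallow libraries. The KO LPS libraries lie above 1 in the left panel, at 1.64 (shallow library 7) to 6.52, and lowest of all groups in the middle panel.

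Levels of different genes were compared per kilobase of exon (CPM per kb), with mean ± SD over 4 libraries. In WT M0 the polyamine genes led, with Sat1 at 79.1 ± 6.1, Srm at 55.4 ± 5.99 and Odc1 at 31.4 ± 1.94, ahead of Asl at 9.98 ± 0.861 and Arg1 at 4.78 ± 1.69. Gch1 at 1.75 ± 0.212 and Slc7a2 at 1.42 ± 0.259 were within their spread of each other, and Arg2 and Nos2 followed at 0.34 ± 0.103 and 0.0229 ± 0.0214. In WT LPS the first 5 genes, Slc7a2, Srm, Arg1, Sat1 and Odc1, lay between 43.9 and 62.1, with neighbours within their spread, and Nos2 followed at 21.1 ± 3.15. In KO LPS Sat1 at 101 ± 14.3 and Nos2 at 96.9 ± 35 led. After IL-4 Arg1 led at 3000 ± 92.5 in WT and 2740 ± 280 in KO, while the next gene was Srm at 106 ± 7.43 in WT and Sat1 at 109 ± 7.52 in KO.

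Among arginine and citrulline transporters, 11 of 12 genes were tested. In KO M0, 4 were higher and 4 lower, in KO LPS 2 and 2, and in KO IL-4 2 and 3, with a median log2 fold change of -0.0367, -0.0377 and 0.0123. Over all genes tested, 11.8% were higher and 10.5% lower in KO M0, 16.2% and 14.6% in KO LPS, and 17.9% and 18.2% in KO IL-4, with medians of 0.0153, 0.0118 and 0.00654, and the counts of this and the following lists stand beside these shares. In M0 the large neutral amino acid transporter Slc7a5 was higher by 0.68 ± 0.0784 (adjusted p = 8.61e-07), the constitutive cationic transporter Slc7a1 by 0.34 ± 0.0574 (adjusted p = 0.000122), and the lysosomal arginine sensor Slc38a9 was lower by -0.38 ± 0.0873 (adjusted p = 0.00247). Slc25a15, the mitochondrial ornithine carrier, was lower in KO LPS (-0.70 ± 0.103, adjusted p = 1.32e-05) and in KO IL-4 (-0.46 ± 0.0758, adjusted p = 4.85e-05). Slc7a7, a partner of Slc3a2 in cationic amino acid exchange, rose with LPS by 1.27 in WT and 1.304 in KO and fell with IL-4 by -1.04 and -0.79. The IL-4 rise of Slc7a1 was smaller in KO, by -0.42 ± 0.0808 (interaction, adjusted p = 0.0081), and the LPS rise of Slc3a2 was larger, by 0.32 ± 0.104 (adjusted p = 0.0425).

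Among the other genes of nitric oxide synthesis and signalling, 14 of 15 were tested, and 3 were higher and 2 lower in KO M0, 2 and 2 in KO LPS, and 4 and 2 in KO IL-4. Their medians were 0.0732, -0.0246 and 0.136. Qdpr, which regenerates tetrahydrobiopterin, had less RNA in KO cells of each state, with -0.84 ± 0.0808 for M0 (adjusted p = 5.5e-08), -0.57 ± 0.104 in LPS (adjusted p = 0.000156) and -0.99 ± 0.0803 in IL-4 (adjusted p = 2.88e-09). Gucy1a3, a subunit of the nitric oxide receptor guanylate cyclase, was higher in KO M0 by 1.88 ± 0.22 (adjusted p = 1.06e-06) at 2.33 CPM against 0.632 CPM. LPS raised 1 and lowered 6 of these genes in WT, and lowered 8 in KO with none raised at the threshold, beside 29.4% raised and 28.3% lowered over all genes in WT and 31.2% and 36% in KO. With LPS, Ddah2 fell by -1.18 in WT and -0.99 in KO. The median was -0.532 in WT and -0.626 in KO, beside -0.0145 and -0.0668 over all genes.

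Of the ornithine, proline, creatine and urea cycle enzymes, 9 of 13 were tested. In KO, 2 were higher and 3 lower in M0, 1 and 5 in LPS, and 2 and 5 in IL-4, with medians of 0.0058, -0.277 and -0.231. Pycr1, which forms proline, was higher in KO M0 by 0.60 ± 0.1 (adjusted p = 0.000105) and in KO IL-4 by 0.71 ± 0.101 (adjusted p = 8.82e-06), and Aldh18a1, which starts proline synthesis from glutamate, was higher in M0 by 0.40 ± 0.066 (adjusted p = 0.000111). Gatm, which takes arginine into creatine synthesis, rose with LPS by 1.98 in WT and 1.66 in KO and with IL-4 by 2.71 and 2.44. For LPS, 4 of the 9 interactions were called, all lower in KO, beside 4.79% of all genes lower and 6.62% higher.

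Of the other polyamine genes, 11 of 14 were tested. In KO, 2 were higher and 2 lower in M0, 4 and 1 in LPS, and 4 and 2 in IL-4, with medians of 0.0541, 0.151 and 0.0923 beside 0.0153, 0.0118 and 0.00654 over all genes. Spermine synthase, Sms, was higher in KO LPS by 0.72 ± 0.0808 (adjusted p = 3.2e-07) and the antizyme inhibitor Azin1 by 0.37 ± 0.0768 (adjusted p = 0.00059), and both responded more to LPS in KO (interaction 0.49 ± 0.101, adjusted p = 0.00196, and 0.32 ± 0.0988, adjusted p = 0.0359). The spermine oxidase Smox was lower in KO M0 by -0.39 ± 0.0622 (adjusted p = 6.85e-05) and had a larger LPS response in KO (0.54 ± 0.1, adjusted p = 0.000794). The polyamine transporter Atp13a3 was higher in KO M0 and KO IL-4, by 0.40 and 0.41. LPS lowered the polyamine oxidase Paox by -1.93 in WT and -1.76 in KO, and IL-4 raised Azin2 by 1.61 and 1.74. Amd1 and Amd2, the S-adenosylmethionine decarboxylases, were listed at 0 in all libraries, and 76.7% of the 50-base words of Amd1 transcripts also occur in Amd2. Oaz1, the antizyme that targets ornithine decarboxylase for breakdown, held 17 counts in all. Of its 50-base words, 20.1% also occur in the pseudogene Oaz1-ps and 21% in any other gene, so most are its own. The annotation and the handling of shared reads are not stated, so these counts do not show that RNA of Amd1, Amd2 or Oaz1 was absent. The cause of the low counts was not tested.

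All 4 genes of hypusine formation, the modification of Eif5a that uses spermidine, were tested. In KO, 1 was higher in M0, 2 were lower in LPS, and 1 was higher and 1 lower in IL-4. Eif5a was lower in KO LPS by -0.23 ± 0.0748 (adjusted p = 0.0188) and in KO IL-4 by -0.37 ± 0.0685 (adjusted p = 0.000161), and IL-4 raised it by 1.24 in WT and 0.87 in KO. Dhps, the first hypusine enzyme, was higher in KO M0 by 0.23 ± 0.0679 (adjusted p = 0.0152). In the methionine cycle and salvage, which supplies the aminopropyl groups of spermidine, 8 of 9 genes were tested, and 2 were higher and 1 lower in KO M0, 3 were lower in KO LPS, and 1 was higher and 5 lower in KO IL-4. Mat2a, which makes S-adenosylmethionine, responded less in KO to LPS (-0.42 ± 0.081, adjusted p = 0.00111) and to IL-4 (-0.35 ± 0.0719, adjusted p = 0.0142). Ahcy was lower in KO in M0, LPS and IL-4, by -0.15, -0.39 and -0.32.

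All 11 transcription factors listed as known to act on the member genes were tested. Of these, 1 was higher and 3 lower in KO M0, 3 were higher in KO LPS, and 1 was higher and 2 lower in KO IL-4, beside 11.8% and 10.5%, 16.2% and 14.6%, and 17.9% and 18.2% of all genes. Irf1, an interferon-response factor that acts on Nos2, was lower in KO M0 by -0.46 ± 0.0892 (adjusted p = 0.000554) and higher in KO LPS by 0.57 ± 0.105 (adjusted p = 0.000176), with an interaction of 1.03 ± 0.137 (adjusted p = 2.61e-05). Hif1a was higher in KO in M0, LPS and IL-4, by 0.31, 0.37 and 0.25. Klf4 was higher in KO LPS by 0.84 ± 0.142 (adjusted p = 6.96e-05). Myc, a known activator of Odc1, was lower in KO IL-4 by -0.51 ± 0.0796 (adjusted p = 2.47e-05), with a smaller IL-4 response in KO (-0.65 ± 0.113, adjusted p = 0.00375).

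The pattern of each gene over the 21 deep libraries was compared with that of 10961 other genes that reached a mean of 5 CPM in at least 1 group, as Pearson's r of log2 CPM. The points share stimulation and genotype groups, so r mainly orders genes by these groups. The 5 genes most like Nos2 were Gbp4 (0.986), Ccl4 (0.985), Il18bp (0.985), Cxcl9 (0.982) and Il12b (0.982). Among the 5 most like Arg1 were Pdcd1lg2 (0.994), Akap7 (0.989), Tuba8 (0.989) and Atp6v1b2 (0.986). Between members r was 0.96 for Nos2 and Gch1, 0.779 for Arg1 and Slc7a2, -0.177 for Nos2 and Arg1, and -0.698 for Nos2 and Srm.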

How the data were processed

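The authors deposited whole-number read counts per gene symbol for 24 libraries, 4 in each of 6 groups. Per the submitters' processing notes, TopHat2 2.1.0 and HTSeq 0.9.1 were used with mm10/GRCm38. No label or note names the annotation, strand setting or library kit, so overlapping and near-identical genes are uncertain. Summary lines that name no gene (8.76 to 9.98% of a file's total) were left out. Of 24421 symbols, 24313 matched RefSeq with synonyms, which gave positions.

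From these counts all 24 libraries were fitted together with edgeR 4.0.16 (R 4.3.3): scaling by TMM with a reference library above 1000000 counts, the default filter on low counts by group (14693 genes), 1 coefficient per group (18 residual degrees of freedom), quasi-likelihood F tests and Benjamini-Hochberg adjustment over all genes kept. A gene is called at an adjusted p under 0.05, and each SE is the log2 fold change over the square root of F. Such tests were run on simulated data first. Alternatives were RLE scaling, no filter, DESeq2 1.42.0, only the groups compared, leaving out libraries, summed number pairs and a block on the label number. The TMM reference was varied after seeing the data. Depth was 63429271 to 94942464 counts in 21 libraries and 172771 to 209368 in 3, where intervals and floors of 3 counts cover counting error only.

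The main fit used no pairing. A rule for pairing by label number asked that every same-numbered pair of deviations from the group mean correlate above 0.1 over 14693 genes. This held for KO M0 with KO IL-4 (0.312 to 0.406 over 4 pairs), not for WT M0 with WT IL-4 (0.01 to 0.17) or KO M0 with KO LPS (-0.015 to 0.151, the lowest with shallow library 7). Over the 2920 genes above 50 CPM the KO M0 and KO LPS pairs gave 0.208 to 0.403, and the block kept all 9 members' calls in that comparison. Libraries of different numbers were not compared in this way. KO numbers 5 and 6 stood apart from 7 and 8 in IL-4 as in M0. In KO IL-4 the chi-square per degree of freedom was 15.7 and 28 within these pairs and 49.1 to 74.8 across them. The correlations therefore cannot tell pairing by single number from that split. Nothing in the labels says what the numbers stand for.

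The members and all lists were chosen with earlier results of these data known. All 10 members are described; of each list, up to 3 called genes with the smallest adjusted p per genotype comparison or interaction, and up to 2 per stimulus, could be named, and the 5 genes most correlated with Nos2 and with Arg1. Ly6g and Trac were not analysed here. Some genes that this rule would name are not reported here. Of 10 members, 4 had an upstream sequence in the RefSeq table, those of Ass1 and Odc1 not being shown.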

Additional observations from a re-analysis of the deposited data

Results flagged for a closer look

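Of 54 sets of 4 libraries (9 members in 6 groups), 6 held 1 library far from the other 3 by Dixon's gap ratio. Chance gives about 1 in 20 for independent sets of values with equal spread. The LPS sets mix deep and shallow libraries, whose counting error differs, and sets of 1 group share libraries, so that rate is only nominal. Library 7 of KO LPS, a shallow one, had 17.9 CPM of Asl (3 counts, beside 50.1 to 52.3 CPM in the others) and 221 CPM of Sat1 (37 counts, beside 298 to 303). Among the shallow WT LPS libraries, library 2 had 83.7 CPM of Arg1 (16 counts, beside 118 to 121) and library 1 had 108 CPM of Srm (21 counts, beside 82.98 to 84.4). In deep libraries, Arg1 was 7040 CPM in KO IL-4 library 8 (beside 5760 to 5880), and Asl was 36.4 CPM in KO M0 library 7 (beside 42.6 to 43.2).

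The response to a stimulus differed between genotypes for 5 members by the interaction test (KO minus WT, log2, edgeR adjusted p under 0.05). For LPS the difference was 0.96 for Sat1, 0.54 for Gch1, -0.63 for Srm and -0.57 for Slc7a2. For IL-4 it was -0.45 for Odc1 and -0.41 for Srm, both lost in most alternatives.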

How the results depend on the processing

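Over all members and comparisons, leaving out 1 library kept direction and side of the threshold in 867 values, weakened 39, strengthened 7 and reversed 23; other settings gave 878, 46, 18 and 18. The count of members called between genotypes in M0 was 4, but 2 without KO numbers 7 and 8 and 1 with number pairs summed. Over all genes tested the M0 calls were 3279 of 14693, 2935 of 14925 and 557 of 15577, in that order. The LPS interaction count was 4, but 1 with number pairs summed, beside 1676 of 14693 and 65 of 15577 over all genes. The IL-4 interaction count was 2, but 1 with no filter or without the 3 shallow libraries, and 0 without KO numbers 7 and 8, with number pairs summed, with only the groups compared and with DESeq2; over 1 library left out it ran from 0 to 2. Over all genes the IL-4 interaction calls were 167 of 14693, 117 of 19140 with no filter and 259 of 15101 without the shallow libraries. They were 105 of 14925 without KO numbers 7 and 8 and 0 of 15577 with pairs summed. With only the groups compared they were 300 of 14504, and with DESeq2 85 of 6341. With 1 library left out they ran from 49 to 282. The cause was not tested.

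All reversed values were of members not called with all libraries. Between genotypes, without KO numbers 5 and 6, Srm in M0 was 0.073, Arg1 in LPS 0.39, Gch1 in LPS -0.022 and Nos2 in IL-4 -1.10. Without numbers 7 and 8, Arg1 in M0 was -0.060 and Asl in LPS 0.0255 (0.019 without the shallow libraries). Arg1 in LPS was 0.049 with pairs summed and 0.035 with DESeq2. Among responses, Asl to LPS in WT was -8e-04 with RLE and -0.034 with a shallow TMM reference. LPS against IL-4 in KO gave Odc1 -0.080 with that reference and -0.011 without numbers 5 and 6, and Sat1 0.033 without the shallow libraries. The LPS interaction was -0.33 for Nos2 and -0.86 for Arg2 without numbers 5 and 6, and 0.19 for Odc1 without numbers 7 and 8.

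With 1 library left out, ranges that crossed 0 were, between genotypes, -0.090 to 0.035 for Srm and -0.0083 to 0.20 for Slc7a2 in M0, -0.36 to 0.088 for Arg1 and -0.046 to 0.0048 for Asl in LPS, and -0.27 to 0.51 for Nos2 in IL-4. For WT responses they were -0.10 to 0.019 for Srm to LPS, and -0.0845 to 0.040 for Gch1 and -0.41 to 0.86 for Nos2 to IL-4. They were -0.002 to 0.083 for Asl to IL-4 in KO, -0.041 to 0.0105 for Sat1 in LPS against IL-4 in KO, and -0.23 to 1.04 for Nos2 and -0.10 to 0.033 for Odc1 in the LPS interaction.

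With the replicate block, Srm to LPS in WT was 0.014 (adjusted p = 0.881), and the calls gained were Nos2 (KO) and Sat1 (WT, 0.15, adjusted p = 0.0222) to IL-4 and Asl in LPS against IL-4 in WT (0.18, adjusted p = 0.029). With a shallow TMM reference the median of all genes moved by -0.131 (LPS against M0 in WT), -0.166 (KO) and -0.115 (LPS against IL-4 in KO), and the share of higher calls fell from 51 to 38%, from 46.4 to 34.2%, from 52.6 to 40.7% (KO against WT LPS) and from 58 to 46.3% (LPS interaction). With no filter Ass1 was fitted, and its calls for LPS in WT and KO rest on at most 3 counts a library.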
